A study of Mus musculus with 5 samples.

Results

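Clock output factors are genes that the circadian oscillator drives directly and that carry its rhythm to the rest of the hepatocyte. The 8 genes described here are Dbp, Tef, Hlf, Nfil3, Ciart, Bhlhe40, Wee1 and Usp2. They were chosen by symbol, as PAR-bZIP factors and other clock-controlled genes, because Dbp and Ciart differed strongly between bezafibrate and control libraries. All 8 were among the 13966 genes of the deposited table, and all 8 passed the filter on low values, which kept 8973 genes with a mean of at least 5.02 normalised read counts over the 5 libraries. The normalised read count is the number of reads of a gene per 1000000 reads of its library, with library size scaled by a TMM factor (trimmed mean of M-values, a default of edgeR). The bezafibrate over control contrast chose these members, so their values in that contrast are a description and support nothing.

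Hepatocytes from livers of ICR mice, an outbred stock, had been sorted on how brightly a chemical reporter of fatty acid oxidation, given to the mice, shone in them. Negative, positive and high positive gates carry the label bezafibrate, taken here to mean mice given this agonist of the peroxisome proliferator-activated receptors, and positive and negative gates are the controls. All libraries share the ICR stock, the probe and the sort, and each of the 5 groups has 1 library. The sources used here do not give the dose, the age and sex of the mice, the number of mice per library or the time of day at which livers were taken. Treatment, mouse and time of collection cannot be told apart in this design, and no difference below has a replicate check.

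In the core loop of the clock, BMAL1 (gene Arntl) pairs with CLOCK or NPAS2 and switches on genes with E-boxes, DNA sites with the letters CACGTG. Among the products are the PER and CRY proteins, which block that pair, and the REV-ERB receptors (Nr1d1, Nr1d2), which repress Arntl, Npas2 and Nfil3 through sites at which the receptor RORA activates them. The PAR-bZIP factors DBP, TEF and HLF bind D-boxes and activate, while NFIL3 (E4BP4) binds the same sites and represses. In mouse liver Dbp RNA has one of the strongest daily rhythms known, with a peak in the later part of the day, and Arntl, Npas2 and Nfil3 RNA peak at other times, near the night to morning change.

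The recovered depth was 5993366 to 7146578 reads in the bezafibrate libraries and 5056884 to 5454866 in the control libraries. Members had 64 to 2609 reads in a bezafibrate library and 29 to 1803 in a control library. Rn45s, the ribosomal RNA precursor, held 10.5%, 18.5% and 13.5% of the normalised total in the bezafibrate negative, positive and high libraries, against 34.8% and 36.3% in the control positive and negative libraries. Counts with Rn45s left out of the column totals are given below beside the first count of members. The drug's known target Ehhadh had 1268 to 1813 normalised read counts in bezafibrate libraries and 72.9 to 87.5 in control libraries. All 6 hepatocyte markers were detected in every library, with a summed level of 62632 to 88477 in bezafibrate and 37063 to 38096 in control libraries. Of these sums Alb held 48208.5 to 72188.3 and 23064 to 24303.3. Of the 6 markers, 3 were higher in all bezafibrate libraries than in either control library. Only 1, Hnf4a, was lower in all of them, at 637.7 to 694.7 against 1008 to 1032. Summed markers of Kupffer cells (3 of 6 in the table), sinusoidal endothelium (4 of 5), cholangiocytes (4 of 5) and neutrophils (1 of 4) stayed at or below 24.6, and none of the T, NK and B cell markers was listed. Stellate markers (4 of 5) summed to 29.6 to 34.4 in bezafibrate and 95.3 to 106.7 in control libraries, of which Reln held 28.5 to 29.8 and 93.4 to 105.8. The part of these cells in the results was not tested. In such bulk libraries, fewer cells that express a gene and less of its RNA per cell cannot be told apart.

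Dbp, Tef, Hlf, Ciart, Wee1 and Usp2 had higher values in all bezafibrate libraries than in either control library, and Nfil3 and Bhlhe40 had lower values. In the negative gates 4 of 8 members reached 2-fold or more upward in bezafibrate, counted on the log2(value + 1.0035) scale, and 0 downward, beside 10.2% of all 8973 genes upward and 5.86% downward. In the positive gates 5 of 8 members reached it upward and 0 downward, beside 4.94% of all genes upward and 2.91% downward. The median log2 difference over the 8 members was 1.03 in the negative and 1.29 in the positive gates, beside 0.02 and 0.00 over all genes. In 6 members the 3 bezafibrate values all lay above both control values and in 2 they all lay below, which holds for 35.7% and 33.8% of all genes. Scaling to equal column totals moved the median of all genes to 0.25 and 0.20 in the negative and positive gates, and leaving out Rn45s from the totals moved it to -0.22 and -0.10. The genes past 2-fold, 919 upward and 526 downward in the negative and 443 and 261 in the positive gates, were 1431 and 270, and 812 and 134, with equal column totals. Without Rn45s in the totals they were 549 and 1050, and 336 and 364. In the negative gates they were 770 and 676 without the 100 highest genes in the totals. Without Rn45s in the totals 3 members were past 2-fold upward and 1, Nfil3, downward in the negative gates, and 5 and 1 in the positive gates.

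**Figure D1:**
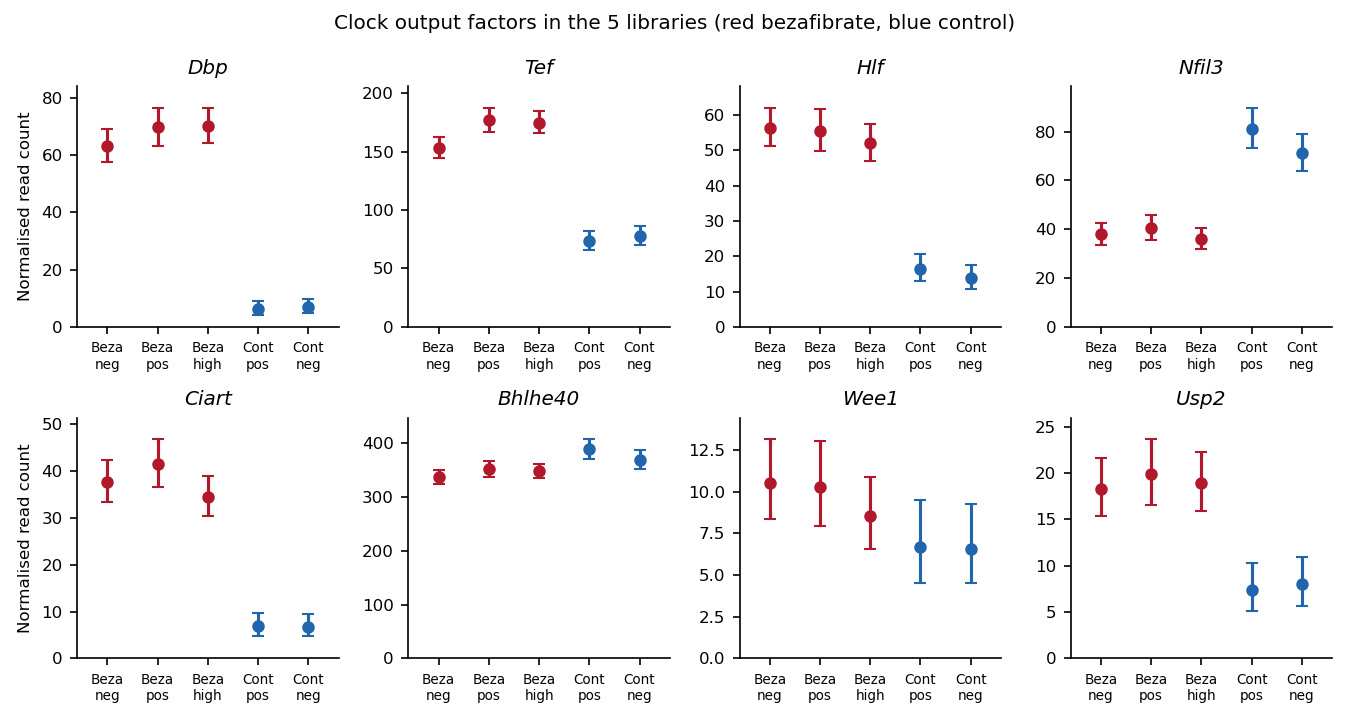
Normalised read counts (y axis, from 0) of the 8 clock output factors in the bezafibrate negative, positive and high libraries (red) and the control positive and negative libraries (blue); points are single libraries and bars are exact Poisson 95% intervals, which cover counting error only. Dbp lies between 63.1 and 70.1 in bezafibrate and between 6.25 and 6.98 in control libraries, while Nfil3 lies between 35.8 and 40.3 in bezafibrate and between 71.0 and 81.1 in control libraries.

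Dbp, D-box binding PAR-bZIP factor (chromosome 7, 45705088 to 45710203 in GENCODE for GRCm38, which is mm10), had 63.1, 69.7 and 70.1 normalised read counts in the bezafibrate negative, positive and high libraries, against 6.25 and 6.98 in the control positive and negative libraries. The 3 bezafibrate values were close to each other and the 2 groups lay far apart. The values within a treatment are those of its gates and not of replicates. A lack of overlap, given here and for members below, is shared by 35.7% of all genes upward and 33.8% downward. The ratio was 9.03 in the negative gates (95% exact counting interval 6.37 to 13.2) and 11.1 in the positive gates (7.65 to 16.8). All such intervals cover counting error only, and without molecular identifiers several reads can come from 1 molecule. Among the 8973 genes Dbp had the 17th highest log2 difference in the negative gates and the 8th highest in the positive gates. At its 3' end Dbp shares 539 of its 2993 merged exon bases with Sphk2 on the other strand. Sphk2 had 85.6, 93.5 and 85.8 in the bezafibrate negative, positive and high libraries, against 57.3 and 65.9 in the control positive and negative libraries. Libraries were strand-specific, but the sources used here do not say whether counting used the strand, so how reads in the overlap were assigned is uncertain.

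Tef, the thyrotroph embryonic factor (chromosome 15, 81802421 to 81826863), had 152.9, 176.7 and 174.8 normalised read counts in bezafibrate negative, positive and high, against 73.7 and 78.0 in control positive and negative. The groups did not overlap, and the bezafibrate negative library was the lowest of its group. The ratio was 1.96 (1.74 to 2.21) in the negative gates and 2.40 (2.12 to 2.71) in the positive gates. With a log2 difference of 0.96 Tef was just under 2-fold in the negative gates. It was past it there, at 1.19, when values were scaled to equal column totals.

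Hlf, the hepatic leukemia factor (chromosome 11, 90336536 to 90390895), had 56.4, 55.5 and 52.0 normalised read counts in bezafibrate negative, positive and high, against 16.4 and 13.8 in control positive and negative. Here too the groups lay apart, by more than the spread between the gates of either treatment, which is not a spread between replicates. The ratio was 4.10 (3.16 to 5.39) in the negative gates and 3.39 (2.64 to 4.40) in the positive gates. Within this family of 3 the ratio was thus largest for Dbp, then Hlf, then Tef in both gates, and the counting intervals of neighbours in that order did not overlap in the negative gates, while those of Hlf and Tef did in the positive gates.

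Tef and Ciart were the members with an E-box (letters CACGTG, which read the same on both strands) in the windows searched, and their promoters are shown with that of Dbp, which had none. RefSeq windows of GRCm38.p6 from 250 bases before to 50 after an annotated start were at hand for 6 members, in 7 windows. CACGTG stands in 7.15% of all 32851 windows. A match describes the letters and is not a measured binding site. The 250 bases before each start are printed 5′ to 3′ on the gene's strand, with E-boxes in capitals. For Tef, which has 2 annotated starts, they lie on the plus strand at chr15:81802423-81802672 and chr15:81811164-81811413, with the E-box beginning 127 and 138 bases before the start.
Tef, upstream start: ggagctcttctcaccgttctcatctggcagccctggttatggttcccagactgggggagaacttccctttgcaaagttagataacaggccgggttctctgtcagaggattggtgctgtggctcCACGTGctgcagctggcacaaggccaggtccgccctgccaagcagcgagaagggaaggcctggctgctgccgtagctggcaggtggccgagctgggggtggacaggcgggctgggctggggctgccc
Tef, downstream start: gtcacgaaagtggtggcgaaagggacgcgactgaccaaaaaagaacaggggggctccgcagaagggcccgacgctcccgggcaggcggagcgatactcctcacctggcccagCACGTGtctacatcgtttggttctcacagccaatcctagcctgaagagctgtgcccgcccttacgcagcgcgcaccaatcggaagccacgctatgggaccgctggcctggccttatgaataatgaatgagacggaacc
Ciart: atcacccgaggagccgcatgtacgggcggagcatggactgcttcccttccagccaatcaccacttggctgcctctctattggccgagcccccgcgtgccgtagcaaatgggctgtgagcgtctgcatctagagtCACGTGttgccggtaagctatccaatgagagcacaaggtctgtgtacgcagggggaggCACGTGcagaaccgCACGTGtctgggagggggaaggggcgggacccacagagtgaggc
Dbp: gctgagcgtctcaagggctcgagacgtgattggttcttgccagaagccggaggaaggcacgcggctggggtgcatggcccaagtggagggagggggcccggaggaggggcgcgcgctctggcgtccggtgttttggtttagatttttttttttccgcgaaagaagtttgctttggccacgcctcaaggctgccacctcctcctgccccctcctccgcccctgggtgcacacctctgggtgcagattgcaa
The Ciart stretch, chr3:95882229-95882478 on the minus strand, has 3 E-boxes that begin 116, 58 and 44 bases before the start, and 0.0883% of all windows hold 3 or more. The Dbp stretch is chr7:45704997-45705246 on the plus strand. None of the 7 member windows held the D-box letters searched (TTATGTAA or TTACGTAA, both strands), which are in 1.06% of all windows. The cyclic AMP response element (TGACGTCA, the same on both strands) stood in 1 of them, that of Hlf, and in 1.79% of all windows. The motifs searched do not overlap in the windows printed.

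Nfil3, the repressor that competes with the PAR-bZIP factors at D-boxes (chromosome 13, 52967209 to 52981073), ran the other way. It had 37.9, 40.3 and 35.8 normalised read counts in bezafibrate negative, positive and high, against 81.1 and 71.0 in control positive and negative. The groups did not overlap. The ratio was 0.533 (0.454 to 0.625) in the negative gates and 0.498 (0.423 to 0.585) in the positive gates. Its log2 differences of -0.89 and -0.99 lay just short of 2-fold. Without Rn45s in the totals both passed it, at -1.14 and -1.10, and the second also passed it without the 100 highest genes, at -1.01, and with the median of ratios, at -1.004. Per kilobase of merged exons, summed Dbp, Tef and Hlf levels were 2.62, 2.71 and 3.02 times the Nfil3 level in bezafibrate negative, positive and high, and 0.348 and 0.408 times that level in control positive and negative. By this measure the RNA of the activators was above that of the repressor in each bezafibrate library and below it in each control library. The order in control libraries depends on the merged exon lengths, 7867 bases for Tef and 2026 for Nfil3. Without that division Tef, Hlf and Dbp had 73.7, 16.4 and 6.25 against 81.1 for Nfil3 in control positive. In control negative they had 78.0, 13.8 and 6.98 against 71.0, so their sum was above Nfil3 in each control library.

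Ciart, also called CHRONO, a repressor of the BMAL1 and CLOCK pair (chromosome 3, 95878503 to 95882251), was after Dbp the member with the largest difference. It had 37.7, 41.5 and 34.5 normalised read counts in bezafibrate negative, positive and high, against 6.90 and 6.78 in control positive and negative. Its control values lay within 1.02-fold of each other and its bezafibrate values within 1.20-fold. The ratio was 5.57 (3.87 to 8.25) in the negative gates and 6.01 (4.15 to 8.97) in the positive gates.

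Bhlhe40, or DEC1, a repressor that also binds E-boxes (chromosome 6, 108660629 to 108666925), was the member that differed least. It had 336.6, 351.3 and 347.6 normalised read counts in bezafibrate negative, positive and high, against 388.7 and 369.6 in control positive and negative. The ratio was 0.911 (0.857 to 0.968) in the negative gates and 0.904 (0.849 to 0.962) in the positive gates. Its direction is not settled, because scaling to equal column totals turned the log2 difference to 0.10 in the negative and 0.06 in the positive gates. Its paralog Bhlhe41, DEC2, had 7.06, 7.25 and 6.13 in bezafibrate negative, positive and high, against 2.80 and 1.64 in control positive and negative, and its mean of 4.98 left it just outside the filter.

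Usp2, a deubiquitinating enzyme with a daily rhythm in many tissues (chromosome 9, 44067021 to 44095627), had 18.3, 19.9 and 18.9 normalised read counts in bezafibrate negative, positive and high, against 7.33 and 8.01 in control positive and negative. The groups lay apart, with ratios of 2.28 (1.59 to 3.34) in the negative and 2.71 (1.84 to 4.08) in the positive gates. Wee1, the kinase that holds CDK1 inactive before mitosis (chromosome 7, 110122046 to 110143286), had 10.5, 10.2 and 8.53 in bezafibrate negative, positive and high, against 6.68 and 6.57 in control positive and negative. Its values were low and its difference small, with ratios of 1.60 (1.05 to 2.50) in the negative and 1.53 (0.985 to 2.43) in the positive gates, the second an interval that includes 1. Per kilobase of merged exons and averaged over the 5 libraries, the level was highest for Bhlhe40 at 76.2 normalised read counts per kilobase, followed by Nfil3 at 26.3, Tef at 16.7, Dbp at 14.4, Ciart at 11.3, Hlf at 5.81, Usp2 at 3.004 and Wee1 at 2.49. This order is one of means and differed between treatments. Dbp had 21.1 to 23.4 per kilobase in bezafibrate and 2.09 to 2.33 in control libraries, while Nfil3 had 17.7 to 19.9 and 35.1 to 40.0.

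**Figure D2:**
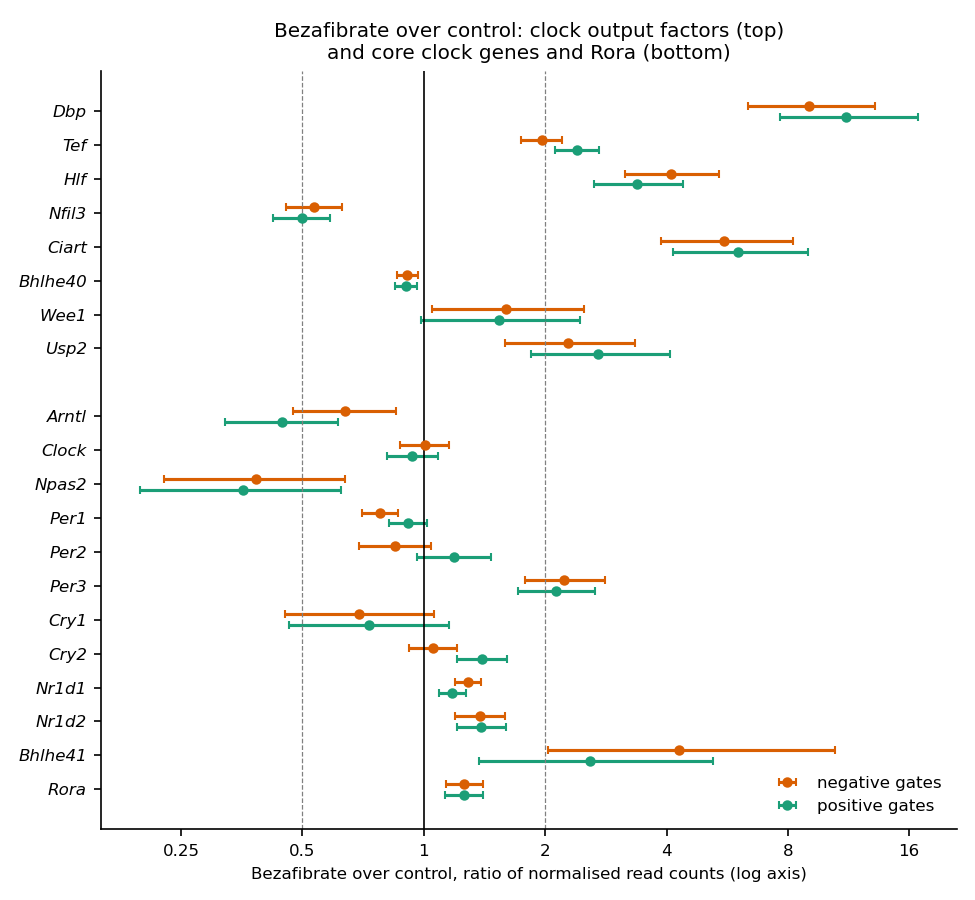
Ratio of normalised read counts, bezafibrate over control (log axis), for the clock output factors (top) and the core clock genes and Rora (bottom), in the negative gates (orange) and the positive gates (green); bars are 95% exact counting intervals, the solid line is 1 and dashed lines are 0.5 and 2. Dbp stands farthest right at 9.03 and 11.1, Ciart at 5.57 and 6.01, while Npas2 stands farthest left at 0.384 and 0.357.

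Of 12 core clock genes, counted with Rora, all but Bhlhe41 passed the filter. The activators of the loop that passed 2-fold were lower in bezafibrate. Npas2 had 3.47, 3.15 and 1.60 normalised read counts in bezafibrate negative, positive and high, against 8.84 and 9.03 in control positive and negative, with log2 differences of -1.17 in the negative and -1.24 in the positive gates. Arntl had 12.5, 10.1 and 10.4, against 22.6 and 19.7, with log2 differences of -0.61 and -1.09. Clock had 65.6 to 69.7 in bezafibrate and 69.4 to 71.4 in control libraries, differences of 0.01 and -0.09 that changed sign with the scaling.

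Among the repressors Per3 stood out, with 45.9, 52.3 and 53.0 normalised read counts in bezafibrate negative, positive and high, against 24.6 and 20.5 in control positive and negative, and ratios of 2.23 (1.78 to 2.82) and 2.13 (1.72 to 2.66). Nr1d1 had 243.0 to 270.5 in bezafibrate and 210.0 to 217.1 in control libraries, and Nr1d2 82.6 to 90.5 and 60.0 to 65.1. These values of both REV-ERB genes did not overlap between treatments, with ratios between 1.18 and 1.39. All bezafibrate values lay above both control values in 35.7% of all genes. Over the settings tried, the log2 difference of Nr1d1 fell as low as 0.11 in the negative and 0.12 in the positive gates. Per1 had 110.2 to 122.6 in bezafibrate and 132.1 to 141.5 in control libraries, a difference that changed sign in the positive gates with equal column totals. Per2 had 29.6 to 37.4 and 31.5 to 34.9, which overlapped, and Cry2 had 74.9 to 90.2 and 64.7 to 71.0, with a sign that changed in the negative gates when Rn45s was left out of the totals. Cry1 had 6.26 to 6.53 in bezafibrate and 8.84 to 9.44 in control libraries, with counting intervals of its ratio that included 1 in both gates. The receptor gene Rora had 140.3 to 143.9 in bezafibrate and 111.7 to 112.1 in control libraries, with a ratio of 1.26 in both the negative and the positive gates. In all, 1 of 7 repressors that passed the filter reached 2-fold upward in each gate and 0 downward. Upward, 10.2% of all genes reached it in the negative and 4.94% in the positive gates. Of 3 activators 1 reached it downward in the negative and 2 in the positive gates, where 5.86% and 2.91% of all genes did. Npas2 gave the call in the negative gates and 1 of the 2 in the positive gates. Its mean of 5.22 lay just above the filter of 5.02. All its bezafibrate values, at 1.60 to 3.47, lay below the filter, so Npas2 entered this count only through its control values. Bhlhe41, the repressor left out by the filter at a mean of 4.98, had 6.13 to 7.25 in bezafibrate and 1.64 to 2.80 in control libraries. The counts of activators and of repressors thus depend on where the filter lies. The calls of these core clock genes depended on the settings. With 5 times the pseudocount Npas2 was at -0.73 and -0.76 and Arntl in the positive gates at -0.87, all short of 2-fold, as were Npas2 in the negative and Arntl in the positive gates with equal column totals. Per3 was short of it with 5 times the pseudocount, and without Rn45s in the totals, at 0.87 and 0.95.

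No window was at hand for Per2, nor for the members Bhlhe40 and Wee1. Among the other core clock genes and members, Per3 was the one whose windows held the D-box letters. It had them at 2 places, which begin 205 and 158 bases before the start on the minus strand of chr4:151044666-151044915 in GRCm38.p6, and 0.0244% of all windows hold 2 or more. The D-boxes are in capitals.
Per3: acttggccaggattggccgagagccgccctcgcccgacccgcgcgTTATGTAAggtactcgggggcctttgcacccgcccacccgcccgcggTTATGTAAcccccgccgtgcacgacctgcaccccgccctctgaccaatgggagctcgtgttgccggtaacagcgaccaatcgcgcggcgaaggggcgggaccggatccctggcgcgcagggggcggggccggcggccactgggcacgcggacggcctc

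Genes linked to the PAR-bZIP factors in mouse liver did not move one way. The 9 such genes take part in heme synthesis, xenobiotic and bile acid metabolism. Their median log2 differences were -0.15 in the negative and -0.11 in the positive gates. In the negative gates 2 reached 2-fold upward and 2 downward, beside 10.2% and 5.86% of all genes. In the positive gates 1 reached it upward and 2 downward, beside 4.94% and 2.91% of all genes. Alas1, the first enzyme of heme synthesis, had 421.1 to 492.7 normalised read counts in bezafibrate and 1271 to 1367 in control libraries, with log2 differences of -1.59 in the negative and -1.47 in the positive gates. Nr1i3, the xenobiotic receptor CAR, had 62.1 to 91.3 and 166.1 to 186.5, with -1.40 and -1.02. Aldh1a1, a retinaldehyde dehydrogenase, had 391.8 to 496.0 in bezafibrate and 140.0 to 141.0 in control libraries, with 1.82 and 1.47. Cyp7a1, the rate-limiting enzyme of bile acid synthesis, had 56.2 to 64.4 and 29.2 to 40.5, with 1.12 and 0.61. In each gate 5 of the 9 genes had differences below 0, beside medians over all genes of 0.02 and 0.00. The signs of Por and Cyp2a4 changed with the settings in both gates, and that of Cyp2a5 in the negative gates. The 2-fold call of Nr1i3 in the positive gates ended with equal column totals, at -0.82, and with 5 times the pseudocount, and that of Cyp7a1 in the negative gates ended without Rn45s in the totals, at 0.86.

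Of 12 other genes known to be rhythmic in liver, 1 reached 2-fold upward and 5 downward in the negative gates, beside 10.2% and 5.86% of all genes. In the positive gates 2 of the 12 reached it upward and 5 downward, beside 4.94% and 2.91% of all genes. Over the other pseudocounts and scalings the downward count of the 12 was 3 to 6 in the negative and 2 to 5 in the positive gates. Their upward count reached 3 in both. The median log2 differences of the 12 were -0.54 and -0.53. Upp2, a uridine phosphorylase, had 1007 to 1112 normalised read counts in bezafibrate and 311.9 to 340.0 in control libraries, with log2 differences of 1.56 in the negative and 1.83 in the positive gates. Rgs16, a regulator of G protein signalling, had 309.3 to 403.0 and 158.5 to 158.9, with 0.96 and 1.34. Lpin1, a phosphatidate phosphatase, had 594.9 to 754.2 in bezafibrate and 2203 to 2256 in control libraries, with -1.92 and -1.54. Mfsd2a, a lipid transporter, had 27.3 to 37.7 and 83.2 to 115.2, with -2.04 and -1.12, of which the second was -0.92 with equal column totals.

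Genes that answer to other cues moved beside the members as follows. Of 11 immediate early and stress genes, which cell dissociation can induce, 5 reached 2-fold downward in the negative and 1 in the positive gates. The shares over all genes were 5.86% and 2.91%. The medians of the 11 were -0.97 and -0.75. Over the other pseudocounts and scalings the downward counts of the 11 were 2 to 8 in the negative and 0 to 3 in the positive gates. Gadd45g had log2 differences of -1.80 and -1.17 and Ier2 of -1.46 and -0.96, while Klf6 had 0.61 and 0.44 and Gadd45b 0.13 and 0.67. Of 7 temperature-linked genes 1, the cold-induced Cirbp, was 2-fold lower in the negative gates, at -1.19 (-0.97 with equal column totals), and it had -0.63 in the positive gates. Hsph1 had -0.54 and -0.64, Hspa1b 0.76 and -0.18, and Hsp90aa1 0.52 and 0.09. None of 7 glucocorticoid-linked genes reached 2-fold in either gate, and under other settings at most 1 did, with Zbtb16 at -0.97 and -0.60, Tsc22d3 at -0.35 and -0.16, Mt1 at -0.07 and 0.25 and Sgk1 at -0.06 and 0.41. The part of these cues in the members' differences was not tested.

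The contrast between sorting gates of one treatment was not used to choose the members. None of the 8 reached 2-fold in any of the 4 gate comparisons, beside 0.256% of all genes in either direction for bezafibrate positive over negative, 0.145% for high over positive, 0.267% for high over negative and 0.334% for control positive over negative. At such shares a count of 0 in 8 says nothing about the members in particular. Under other scalings the upward and downward counts over all genes behind these shares shifted. For bezafibrate positive over negative they were 12 and 11, and 23 and 9 without Rn45s in the totals. For high over positive they were 6 and 7, and 11 and 7 with equal column totals. For high over negative they were 10 and 14, then 14 and 12 with equal totals, 16 and 9 without Rn45s and 13 and 12 without the 100 highest genes, and for control positive over negative 13 and 17, and 15 and 11 with equal totals. In bezafibrate libraries the differences of positive minus negative ran between -0.04 for Wee1 and 0.21 for Tef. Tef was the one member whose interval left out 1 there, at 176.7 in the positive and 152.9 in the negative gate and a ratio of 1.16 (1.06 to 1.26). It was also above the negative gate in the high gate, at 174.8 and a ratio of 1.14 (1.06 to 1.24), a comparison that shares the negative library. How many of all genes had intervals that left out 1 was not counted. Tef had 1121 reads in the positive and 1147 in the negative gate, enough for a small ratio to leave out 1. In control libraries the log2 differences of positive minus negative ran between -0.14 for Dbp and 0.24 for Hlf, and all 8 counting intervals of the ratio included 1. Depth limits this, since the Dbp ratio of 0.896 in control libraries had an interval of 0.526 to 1.51.

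In the high over positive comparison the members' median log2 difference was -0.08, beside -0.00073 over all genes. The signs of the small differences of Tef and Bhlhe40 changed with equal column totals, and that of Dbp without Rn45s in the totals. Ciart had 34.5 in the high and 41.5 in the positive gate, a ratio of 0.833 (0.699 to 0.992). Dbp had 70.1 and 69.7, a ratio of 1.01 (0.885 to 1.14). An additive fit of gate and treatment with edgeR's quasi-likelihood test on the recovered reads of the 4 positive and negative libraries, chosen after the data were seen, gave all 8 members an adjusted p of 0.997 for the gate. Their unadjusted edgeR p-values lay between 0.377 and 0.94, and 11 of 8973 genes were called for the gate. With 1 residual degree of freedom, its error is how the gate difference varied between treatments, so it is not a test between replicates, and such a p does not show that gates are alike.

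**Figure D3:**
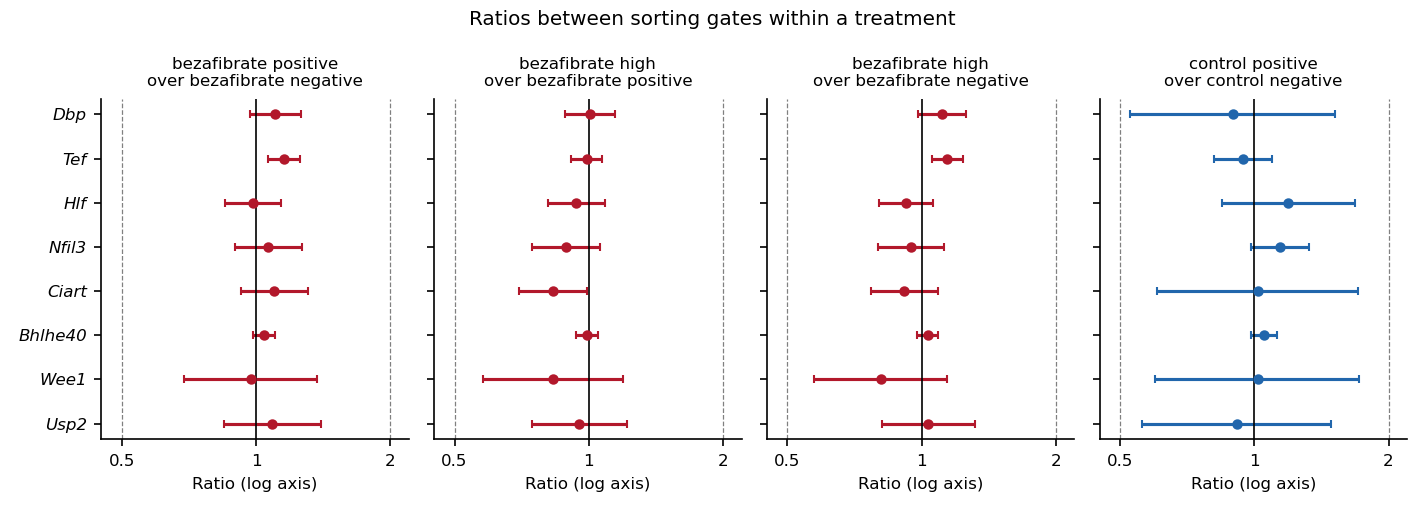
Ratios of normalised read counts (log axis) between sorting gates for the 8 clock output factors, in 3 bezafibrate comparisons (red) and control positive over negative (blue); bars are 95% exact counting intervals, the solid line is 1 and dashed lines are 0.5 and 2. All points lie between the dashed lines, from 0.810 for Wee1 in high over negative to 1.19 for Hlf in control positive over negative.

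Over the 5 libraries, the profile of Dbp was closest to those of Retsat, Mup10, Arrdc3, Hsd17b11 and Mup9, by the Euclidean distance of centred log2(value + 1.0035) values, with distances of 0.44 to 0.59. Retsat, retinol saturase, had 433.1 to 587.7 normalised read counts in bezafibrate and 51.5 to 52.4 in control libraries. Arrdc3, an arrestin-domain protein, had 120.0 to 127.8 and 17.7 to 18.5, and Hsd17b11, a lipid droplet enzyme, 184.9 to 215.7 and 22.4 to 29.7. Mup9 and Mup10 have near-identical copies, so the split of reads between them is uncertain. The profile of Ciart was closest to those of Selenbp2, Txn1, Cml1, Cyp4a31 and Bcl6, with distances of 0.20 to 0.40. Selenbp2, a selenium-binding protein, had 682.9 to 703.1 in bezafibrate and 140.1 to 147.8 in control libraries, and Bcl6, a transcriptional repressor, 110.7 to 135.2 and 27.6 to 33.1. The 5 points of such a profile fall into 2 treatments, so likeness here is mostly likeness of the treatment difference.

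**Figure D4:**
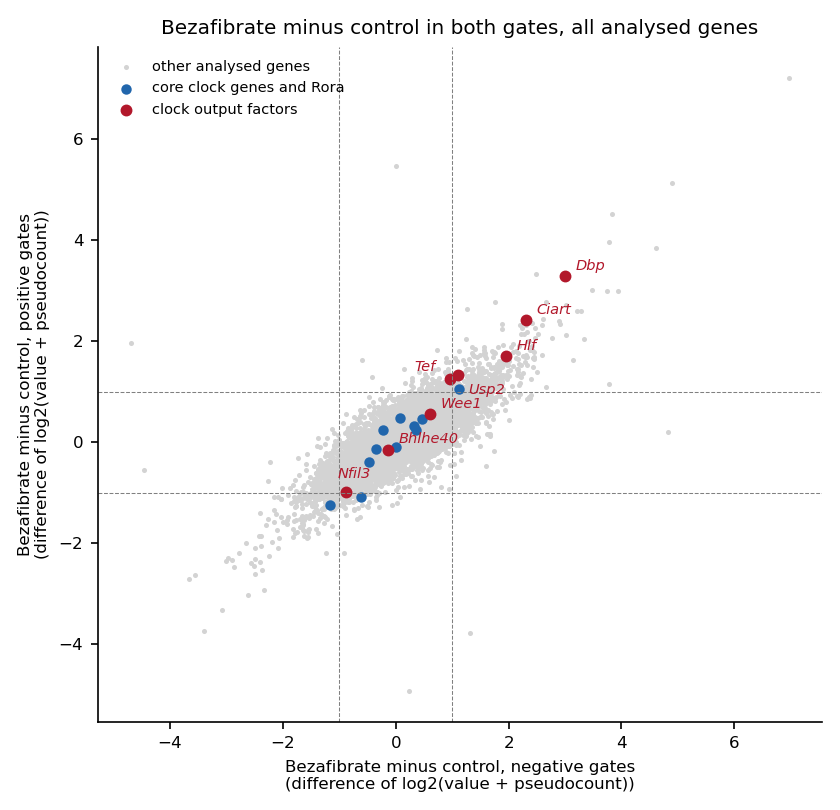
Bezafibrate minus control differences of log2(value + 1.0035) in the negative gates (x axis) and the positive gates (y axis) for all 8973 analysed genes (grey), the core clock genes and Rora (blue) and the clock output factors (red); dashed lines mark 2-fold. Dbp lies at 3.004 and 3.28, Ciart at 2.32 and 2.43, Hlf at 1.96 and 1.70, and Nfil3 at -0.89 and -0.99.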

How the data were processed

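RNA of sorted hepatocytes was sequenced in 5 libraries, 1 per group. The submitters' processing notes name Trimmomatic 0.36, Bowtie2, RSEM, edgeR and mm10, without roles, and the sources used here name no annotation. The signal the authors deposited is a normalised gene-level read count. Each column is a whole multiple of its smallest value above 0, for 100% of values within 0.001 reads, which gave back the reads. TMM factors recomputed on these reads equalled the deposited scaling in all 5 libraries, within a relative 0.000001.

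Differences are of log2(value + 1.0035), 1 part in 1000000 of the mean column total, which understates differences of low genes. Genes needed a mean of 5.02. Intervals of ratios are 95% Clopper-Pearson intervals on these reads. The counting and fitting steps were tested on simulated data.

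The 8 members and all gene lists were chosen with earlier results of these data known. Named from other lists were every core clock gene and Rora (1 further listed gene is not reported here), and per further list the 2 largest and 2 smallest mean differences. The 5 nearest profiles left out members, provisional names, pseudogenes, small RNAs and every symbol that begins with Rn, whatever its type. Pseudocounts, filters, scalings and fold sizes were varied. With 1 library per group there is no test between replicates. The p-values given come from edgeR 4.0.16 in R 4.3.3, an added alternative fitted to the recovered reads of 4 libraries, in which gates of one treatment stand in for replicates of it and treatments for replicates of a gate. It called 4106 of 8973 genes for treatment at an adjusted p of 0.05. The rest was computed in Python 3.11.15 with pandas 2.3.3, numpy 2.4.6, scipy 1.17.1 and matplotlib 3.10.9.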

Additional observations from a re-analysis of the deposited data

Results flagged for a closer look

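Dbp, Tef, Hlf, Wee1 and Usp2 had differences of positive minus negative gate with opposite signs in the bezafibrate and control libraries. The share of all genes with such opposite signs was not counted. The medians of these differences over all genes were near 0, at -0.012 in bezafibrate and 0.0098 in control libraries. The opposite signs therefore say nothing about the members in particular. The bezafibrate gate difference minus the control gate difference was 0.28 for Dbp, 0.29 for Tef, -0.26 for Hlf, -0.058 for Wee1 and 0.23 for Usp2 on the log2 scale. With 1 library per group these differences between treatments were not tested, and apart from Tef in bezafibrate libraries, the counting interval of each gate ratio behind them included 1. The signs of Dbp, Tef and Usp2 held under the pseudocounts and scalings tried. The bezafibrate differences of Hlf and Wee1 turned positive, the sign of their control differences, when Rn45s or the 100 highest genes were left out of the totals, and reached 0.12 for Hlf and 0.098 for Wee1.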

How the results depend on the processing

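No paired analysis was possible because each group has 1 library, apart from the added edgeR fit, which compares gates within treatment and treatments within gate. No replicate could be left out. Over the pseudocounts, filters and scalings tried, the members at least 2-fold different numbered 3 to 5 in the negative and 4 to 6 in the positive gates of bezafibrate over control, and 0 in each gate comparison. The 4 in the positive gates came with the filter at 20 pseudocounts, which kept 6 members. Counted at 1.5-fold they were 7 of 8 in the negative gates, 6 upward and 1 downward, beside 3599 of 8973 genes either way. At 3-fold they were 3 in the positive gates, beside 154 of 8973 genes. Bhlhe40 was the member whose treatment difference changed sign, with equal column totals. Tef's difference in the negative gates, 0.96, ran from 0.71 without Rn45s in the totals to 1.19 with equal column totals.

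Counts over all genes, which set the background, moved more. They are given for bezafibrate over control in the negative and positive gates, for bezafibrate positive over negative, high over positive and high over negative, and for control positive over negative. As reported they were 1445, 704, 23, 13, 24 and 30. With 5 times the pseudocount they were 943, 411, 14, 8, 9 and 3. With a filter at 20 pseudocounts they were 874, 405, 8, 4, 7 and 3. Counted at 1.5-fold they were 3599, 2453, 422, 159, 340 and 303, and at 3-fold 345, 154, 11, 8, 9 and 3. With a filter at 1 pseudocount the 4 gate comparisons had 73, 94, 102 and 150. With no filter the positive gates of bezafibrate over control had 1086, and the gate comparisons 92, 133, 133 and 232. The other settings changed these counts by less than 1.5 times. The edgeR fit called 4106 genes for treatment and 11 for gate, and with no filter 4394 and 17. Low read numbers limit Dbp, Ciart, Wee1 and Usp2 in control libraries most.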
